A study of Mus musculus with 18 samples.

Results

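Cardiac resident macrophages (CRMs) sorted by the chemokine receptor CCR2 were compared across 3 conditions at once, with 9 CCR2+ libraries set against 9 CCR2- libraries, which are all 18 libraries of the series. Members were chosen by the subset in the sample name, so that control, high-fat diet and aged hearts each gave 3 CCR2+ and 3 CCR2- libraries, and the condition was kept as a term of the model. Control hearts came from young mice of 3 months and aged hearts from mice of 20 months, which the study's methods describe as female C57BL/6J. Age, sex and feeding of the high-fat diet mice were not given in the sources used here. No library carried a transgene or deletion by the labels. More than 5000 cells per sample were sorted from the left ventricle on CD11b, CX3CR1 and CCR2, and their total RNA was read through amplified full-length cDNA (SMART-Seq v4). A figure legend of the study counts mice as the replicates of sorted CRMs from young and aged hearts, but neither it nor the labels tie a library to a mouse, so p-values measure the spread between these libraries only.

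Macrophages of the adult heart are commonly divided by CCR2. CCR2 binds the chemokine CCL2 and draws monocytes out of the blood, and CCR2+ cardiac macrophages are replenished from those monocytes. CCR2- macrophages largely maintain themselves in the tissue, and many of them carry the phosphatidylserine receptor TIM-4 (Timd4), the hyaluronan receptor LYVE-1 (Lyve1) and the folate receptor FOLR2 (Folr2), the so-called TLF set. MHC class II molecules present peptides from engulfed material to CD4 T cells, and both subsets of macrophages can carry them.

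Pooled over the 3 conditions, CCR2+ CRMs had higher levels of the lectin Cd209a and of 7 of 16 genes on the MHC class II list. The small cytoskeletal and calcium-binding genes Tmsb10, S100a4 and S100a6 and the secreted Retnla were also higher. CCR2- CRMs had higher levels of the lectin Cd209f, the carbonyl reductase Cbr2, the scavenger and complement receptors Colec12 and Vsig4, and the bridging ligand Gas6. Of these, the class II genes, S100a6, Vsig4 and Gas6 did not pass once 2 CCR2- libraries described below were left out. By the quasi-likelihood test of edgeR, adjusted after Benjamini and Hochberg, 46 of 15456 tested genes passed an adjusted p of 0.05, of which 21 (0.136% of those tested) were higher and 25 (0.162%) were lower in CCR2+ CRMs. The study's stricter call, which also asks for a log2 fold change beyond 2, was met by 11 higher (0.0712%) and 24 lower genes (0.155%). At an unadjusted p under 0.05 there were 847 of the 15456 genes in each direction. With an adjusted p of 0.05, DESeq2 passed 813 higher and 568 lower genes, and limma-voom 64 and 55. Because the split of calls depended on scaling, it is given under each: 21 higher and 25 lower with TMM factors, 24 and 10 with RLE factors, and 19 and 47 with library size alone. The median log2 fold change over all genes was 0.15, 0.46 and -0.10 under those scalings, and each log2 fold change below, which is CCR2+ relative to CCR2-, is to be read against the 0.15.

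**Figure D1:**
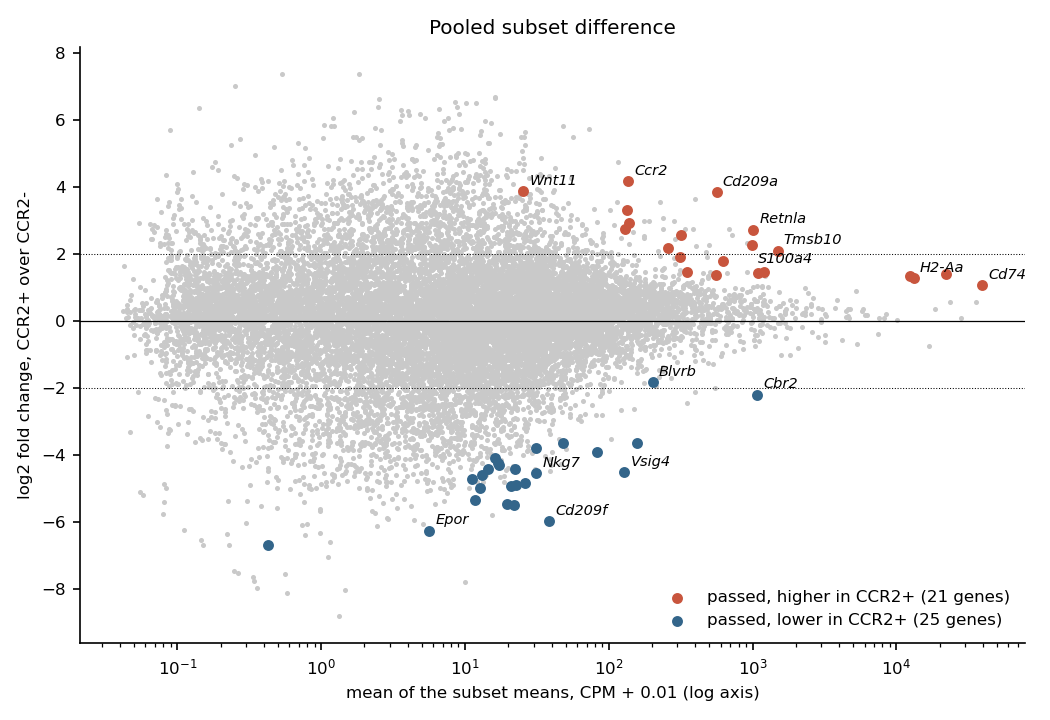
Pooled subset difference of all 15456 tested genes. The horizontal axis is the mean of the subset means (CPM + 0.01, log axis) and the vertical axis the log2 fold change of CCR2+ over CCR2- CRMs with condition as a term; coloured points are the 21 higher and 25 lower genes past an adjusted p of 0.05, which leave most genes with large fold changes in grey.

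Sequences are shown for the genes that lead each direction. The MHC class II genes moved together, so 4 of their promoters are printed first, from 250 bases before to 50 bases after the RefSeq start in the GRCm38.p6 build. Capitals mark the letters CCAAT, the core of the Y box of class II promoters, or ATTGG where it lies on the other strand. The matches begin 48 bases before the start in H2-Aa (chr17:34287774-34288073, minus strand), 61 in H2-DMb1 (chr17:34152941-34153240, plus strand) and 90 in H2-DMb2 (chr17:34144999-34145298, plus strand), and H2-Eb1 (chr17:34305617-34305916, plus strand) holds 2 matches.
H2-Aa: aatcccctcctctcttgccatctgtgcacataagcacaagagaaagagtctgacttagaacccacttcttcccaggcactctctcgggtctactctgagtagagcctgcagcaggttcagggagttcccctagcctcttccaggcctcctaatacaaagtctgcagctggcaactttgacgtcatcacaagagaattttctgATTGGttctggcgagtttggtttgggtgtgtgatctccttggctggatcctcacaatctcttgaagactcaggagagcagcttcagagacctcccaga
H2-Eb1: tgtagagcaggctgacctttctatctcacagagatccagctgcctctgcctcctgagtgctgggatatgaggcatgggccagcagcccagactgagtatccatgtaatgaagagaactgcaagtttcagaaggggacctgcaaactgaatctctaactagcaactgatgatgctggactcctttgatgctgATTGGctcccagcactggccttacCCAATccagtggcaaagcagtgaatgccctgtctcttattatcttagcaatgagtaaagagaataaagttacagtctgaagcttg
H2-DMb1: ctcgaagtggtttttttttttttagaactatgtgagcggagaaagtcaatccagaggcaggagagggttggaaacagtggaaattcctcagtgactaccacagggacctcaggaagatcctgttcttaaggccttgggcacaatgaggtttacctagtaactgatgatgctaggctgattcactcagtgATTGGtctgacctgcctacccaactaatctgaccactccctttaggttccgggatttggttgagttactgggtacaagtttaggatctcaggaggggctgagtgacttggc
H2-DMb2: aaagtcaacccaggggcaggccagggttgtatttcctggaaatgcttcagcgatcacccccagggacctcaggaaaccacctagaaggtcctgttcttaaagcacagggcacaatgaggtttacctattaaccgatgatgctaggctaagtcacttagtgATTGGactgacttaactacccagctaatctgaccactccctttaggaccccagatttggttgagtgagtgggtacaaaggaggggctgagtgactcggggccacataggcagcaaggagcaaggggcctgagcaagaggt

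Cd209a and Cd209f, members of one lectin family on chromosome 8 with the smallest p-values in opposite directions, are printed next. Their promoters are chr8:3748935-3749234 and chr8:4105715-4106014, both on the minus strand. Capitals mark the AP-1 letters TGANTCA, which occur 83 bases before the start of Cd209f and nowhere in this window of Cd209a.
Cd209a: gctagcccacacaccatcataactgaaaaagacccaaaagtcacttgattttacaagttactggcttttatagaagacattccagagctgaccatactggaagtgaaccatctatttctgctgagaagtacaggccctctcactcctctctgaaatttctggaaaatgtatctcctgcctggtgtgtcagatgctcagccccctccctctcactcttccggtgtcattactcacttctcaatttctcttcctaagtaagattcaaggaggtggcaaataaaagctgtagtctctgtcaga
Cd209f: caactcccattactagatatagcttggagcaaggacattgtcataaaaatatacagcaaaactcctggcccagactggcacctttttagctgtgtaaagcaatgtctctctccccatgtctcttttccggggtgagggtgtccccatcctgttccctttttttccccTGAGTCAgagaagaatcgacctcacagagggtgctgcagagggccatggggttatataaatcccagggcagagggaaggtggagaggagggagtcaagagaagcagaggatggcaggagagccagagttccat

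Promoters of RefSeq could be matched to 37 of the 46 genes, 18 higher and 19 lower. Searched on both strands, CCAAT was found in 8 of the 18 higher genes (44.4%) and in 5 of the 19 lower genes (26.3%), against 37.9% of all 27025 promoters. Only the first start listed for each gene was searched. Among the MHC class II genes that passed, 5 had a promoter to search and 4 of them held CCAAT in that window, the exception being H2-DMa. H2-DMa has 2 listed starts, so its other start was not searched and may hold CCAAT. The MAF letters TGCTGAC was found in 4 of the 19 lower genes (Cbr2, Fcna, Epor and Rgs3, 21.1%) and in 1 of the 18 higher genes (Retnla), against 4.58% of all promoters. The PU.1 letters GAGGAAGT were found in 3 of the 18 higher genes (S100a4, Retnla and Tnip3, 16.7%) and 0 of the 19 lower genes, against 3.28% of all. The AP-1 letters TGANTCA were found in 2 higher genes and 1 lower gene (7.93% of all promoters), the interferon response letters GAAANNGAA in 3 of each (8.57% of all), and the NF-kB letters GGGNNTTCC in 2 higher genes and 1 lower gene (5.72% of all). These letter matches are descriptions of short windows and the groups of genes are small.

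Libraries held between 39753911 and 56541280 counts and between 13808 and 17437 genes with a count. A count of 3 corresponded to 0.0531 to 0.0755 CPM by library size alone, before TMM scaling. Levels of genes and lists are given in CPM scaled by TMM. TMM factors ran from 0.427 in control CCR2+ library 3 to 1.46. In 2 of the 6 groups library 3 stood apart, not as an outlier but by lying between the other libraries of its group. Genes of at least 20 CPM whose levels in libraries 1 and 2 of the group were 2-fold or more apart were used. This check used CPM by library size alone. Control CCR2- library 3 lay between those libraries at 99.6% of 3876 genes and aged CCR2- library 3 at 99.7% of 3431 genes. For each of the other 16 libraries that share was between 0.549% and 64.7%. No source used here ties these 2 libraries to particular mice. Whether they are independent of libraries 1 and 2 of their groups was not tested, and p-values from all 18 libraries count them as replicates. Without them 8 genes passed, 4 in each direction, namely Cd209a, S100a4, Tmsb10, Retnla, Cd209f, Cbr2, Nkg7 and Colec12, while the adjusted p of the other 38 of the 46 genes then lay between 0.0717 and 0.164. The value without them is given beside the passed genes described below, or as a range for the MHC class II genes.

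Ccr2 (chr9:124101950-124113557), the sort marker, checks the labels. Its level in CCR2+ CRMs was 342, 266 and 85.6 CPM in control libraries 1 to 3, 153, 324 and 291 CPM in high-fat diet libraries and 345, 299.7 and 123 CPM in aged libraries. In CCR2- CRMs it was 2.41, 2.91 and 3.88 CPM in control, 7.40, 28.9 and 6.79 CPM in high-fat diet and 98.8, 31.2 and 43.9 CPM in aged libraries. Within each condition every CCR2+ library was above every CCR2- library, and aged CCR2- library 1 exceeded control CCR2+ library 3. The pooled log2 fold change was 4.17 ± 0.67 (SE, adjusted p = 0.00886), with 6.23 in control, 4.16 in high-fat diet and 2.14 in aged hearts. Without the 2 libraries that stood apart, the adjusted p of Ccr2 was 0.0807.

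The 3 resident markers had a negative log2 fold change in every condition, but none passed edgeR's test across all genes. Other tools did call some of them, as DESeq2 passed Timd4 (adjusted p = 7.41e-05) and Folr2 (adjusted p = 0.042) and limma-voom passed Folr2 (adjusted p = 0.00288) and Lyve1 (adjusted p = 0.048). Timd4 was 0.344, 1.41 and 20.8 CPM (lowest, median, highest) in CCR2+ and 0.673, 49.7 and 171 CPM in CCR2- libraries, and the groups overlapped because control and aged CCR2- libraries 2 were at 2.42 and 0.673 CPM. Its log2 fold change was -4.42 ± 1.03 (adjusted p = 0.0812, and 0.218 without the 2 libraries). Folr2 was 24.5, 191 and 450.1 CPM against 167, 1029.7 and 1608 CPM, with a log2 fold change of -2.02 ± 0.45 (adjusted p = 0.0684, and 0.143 without the 2 libraries). Lyve1 was 11.6, 139 and 716 CPM against 75.8, 528 and 1612 CPM, with a log2 fold change of -2.12 ± 0.61 (adjusted p = 0.167, and 0.304 without the 2 libraries). In a two-sided exact permutation test of single genes within conditions (log2(CPM + 1), 8000 arrangements), p was 0.00025 for Ccr2, the smallest possible, 0.003 for Timd4, 0.00175 for Lyve1 and 5e-04 for Folr2. The general macrophage markers passed in neither direction (0 of 15 by edgeR, with 1 higher and 3 lower at an unadjusted p under 0.05, and 0 by DESeq2 and limma-voom), and their summed level was 32559 to 154534 CPM in CCR2+ and 35007 to 83843 CPM in CCR2- libraries.

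**Figure D2:**
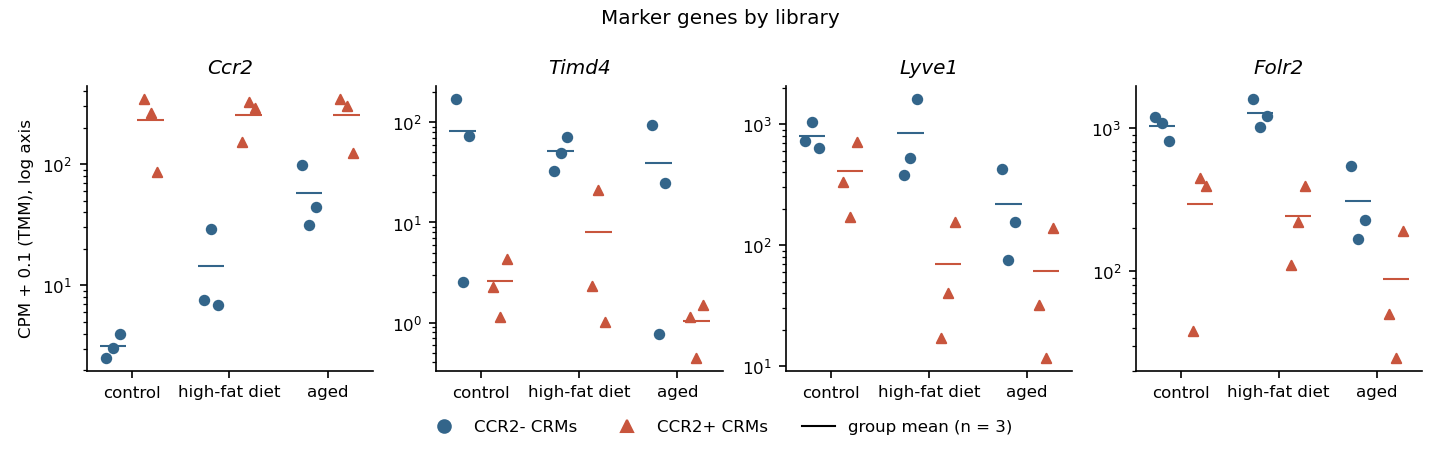
Level of the 4 sort and subset markers in each library. The vertical axis is CPM + 0.1 on a log axis, each point is 1 library of the 3 conditions by subset, and short lines are group means of 3 libraries; Ccr2 separated the subsets within every condition, whereas Timd4, Lyve1 and Folr2 were lower in most CCR2+ libraries with overlap.

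The smallest p of the pooled contrast belonged to Cd209a (chr8:3743397-3748984), a C-type lectin of the DC-SIGN family that binds glycans. CCR2+ libraries held 1691, 437 and 3025 CPM in control, 984, 1104 and 1204 CPM in high-fat diet and 403, 77.9 and 546 CPM in aged hearts. CCR2- libraries held 134, 110.1 and 82.3 CPM in control, 43.7, 68.1 and 98.4 CPM in high-fat diet and 48.3, 19.1 and 20.2 CPM in aged hearts. The groups did not overlap within any condition, and aged CCR2+ library 2 alone fell within the pooled CCR2- range. The log2 fold change was 3.83 ± 0.41 (14.3-fold, adjusted p = 0.000196, and 0.00169 without the 2 libraries), and it was nearly level over conditions at 3.98 in control, 3.97 in high-fat diet and 3.55 in aged hearts. Clec4b1, another C-type lectin, was 81.5, 158 and 581 CPM in CCR2+ and 3.51, 21.4 and 74.8 CPM in CCR2- libraries without overlap, with a log2 fold change of 3.31 ± 0.65 (adjusted p = 0.0324, and 0.142 without the 2 libraries).

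Cd209a is also one of 12 dendritic cell markers on the list of other cell types. That list summed to 283, 1234 and 3081 CPM in CCR2+ and 130, 189 and 288 CPM in CCR2- libraries, and without Cd209a to 56.0, 206 and 485 CPM against 64.3, 90.6 and 182 CPM. Cd209a was the 1 of its 12 members that passed by edgeR or by limma-voom, and the median log2 fold change of the list was 1.02. At an unadjusted p under 0.05, 4 members were higher and 1 was lower, against 847 of all 15456 tested genes in each direction. DESeq2 passed 4 members as higher and 0 as lower, against 813 and 568 of all tested genes. Zbtb46, which defines conventional dendritic cells, reached 0.309 CPM in CCR2+ and 18.3 CPM in CCR2- libraries. Higher maxima in CCR2+ libraries were seen for Xcr1, at 94.5 against 9.07 CPM, and Klrd1, at 191 against 7.92 CPM, while Flt3 reached 108 and 107 CPM. Itgae was at most 0.513 CPM in CCR2+ and at 0 in every CCR2- library. Xcr1 (log2 fold change 4.76, adjusted p = 0.206), Klrd1 (3.51, adjusted p = 0.291) and Itgae (adjusted p = 0.172) did not pass by edgeR. Without 1 library the log2 fold change fell as low as 2.79 for Xcr1 and 1.88 for Klrd1. The part of dendritic cells in the Cd209a difference was not tested. In bulk libraries, fewer cells that express a gene and less RNA per cell cannot be told apart.

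The classical MHC class II chains rose together in CCR2+ CRMs. H2-Aa, which encodes an alpha chain, was 31048, 14689 and 38539.7 CPM in control, 15208, 14200.2 and 21714 CPM in high-fat diet and 10087, 8497 and 14886 CPM in aged CCR2+ libraries. The CCR2- libraries held 8213, 15403 and 8281 CPM in control, 4983, 4577 and 4673 CPM in high-fat diet and 8206, 8103 and 6238 CPM in aged hearts. CCR2+ and CCR2- libraries separated in high-fat diet and aged hearts, and in control hearts CCR2- library 2 exceeded CCR2+ library 2. The log2 fold change of H2-Aa was 1.27 ± 0.21 (adjusted p = 0.0126), that of the beta chain H2-Ab1 1.40 ± 0.26 (adjusted p = 0.0256) and that of the beta chain H2-Eb1 1.33 ± 0.24 (adjusted p = 0.0226). Their estimates ranked alike over conditions, with 1.40, 1.84 and 0.57 for H2-Aa, 1.76, 2.01 and 0.41 for H2-Ab1 and 1.42, 2.10 and 0.45 for H2-Eb1 in control, high-fat diet and aged hearts. None of the 3 passed the interaction test between subset and condition.

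The genes that load peptide onto class II molecules moved in the same direction. H2-DMb2, a beta chain of the peptide exchanger H2-DM, was 32.1, 204 and 603 CPM in CCR2+ and 13.9, 27.1 and 52.8 CPM in CCR2- libraries, with a log2 fold change of 2.74 ± 0.52 (adjusted p = 0.0283). Only aged CCR2+ library 2 lay within the CCR2- range. H2-DMb1 (1.42 ± 0.28, adjusted p = 0.0324), H2-DMa (1.47 ± 0.29, adjusted p = 0.036) and the invariant chain Cd74 (1.06 ± 0.22, adjusted p = 0.0395), 3 genes named after their values were seen, also rose on the log2 scale. H2-DMb1 and H2-DMb2 are close copies, and how reads shared between them were counted was not stated. In all, 7 of 16 class II and costimulation genes passed, all higher, and 11 of 16 were higher in all 3 conditions, against 16.2% of all tested genes. The median log2 fold change of the list was 1.30, with 1.41 in control, 1.93 in high-fat diet and 0.47 in aged hearts. The class II transactivator Ciita had 1.56 (adjusted p = 0.605), the H2-DO chain H2-Oa 3.90 (adjusted p = 0.0565), and the costimulators Cd86, Cd80 and Cd40 had -0.38, -0.23 and 0.14. Without the 2 libraries that stood apart, the adjusted p of the 7 genes lay between 0.0807 and 0.148, and without the high-fat diet libraries the median of the list was 0.77.

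S100a4, S100a6 and Tmsb10 were higher in CCR2+ CRMs. S100a4, a calcium-binding protein of motile cells, was 1868, 1146 and 3961 CPM in control, 1753, 1400.0 and 1309.8 CPM in high-fat diet and 1655, 1024 and 621 CPM in aged CCR2+ libraries. Its CCR2- levels were 275, 237 and 182 CPM in control, 497, 325 and 322 CPM in high-fat diet and 469.7, 347 and 296 CPM in aged hearts. All 9 CCR2+ libraries were above all 9 CCR2- libraries, and the log2 fold change was 2.28 ± 0.31 (adjusted p = 0.0021, and 0.0239 without the 2 libraries). Tmsb10, which binds actin monomers, was 1152, 2062 and 5012 CPM against 314, 544 and 998 CPM without overlap, with a log2 fold change of 2.10 ± 0.29 (adjusted p = 0.0021, and 0.0239 without the 2 libraries). S100a6 was 575, 769 and 1989 CPM against 157, 248 and 425 CPM, again without overlap, at 1.79 ± 0.30 (adjusted p = 0.0126, and 0.0983 without the 2 libraries). For all 3 genes the difference was largest in control hearts, at 3.33, 2.90 and 2.92, and smallest in aged hearts, at 1.57, 1.50 and 1.20 on the log2 scale, although none passed the interaction test. S100a11, named after its values were seen, had 1.37 ± 0.25 (adjusted p = 0.0226, and 0.142 without the 2 libraries). Other S100 genes on the lists did not pass, with 0.61 for S100a10 (adjusted p = 0.333), -0.43 for S100a8 and -0.26 for S100a9.

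S100a4 and S100a6 belong to a list of 20 monocyte markers, of which these 2 passed by edgeR, while 11 were higher and 0 lower at an unadjusted p under 0.05. DESeq2 passed 10 and limma-voom 3, all higher. Over all 15456 tested genes, 847 were higher at that unadjusted p, and DESeq2 passed 813 and limma-voom 64 as higher. The list had a median log2 fold change of 1.44, and 18 of its 20 genes were above 0. Its summed level was 5910, 11438 and 27637 CPM in CCR2+ and 3316, 4730 and 10523 CPM in CCR2- libraries, and without S100a4, S100a6 and S100a10 it was 4045, 6862 and 24375 CPM against 2034, 2986 and 9153 CPM. Plac8, at 2.31 (adjusted p = 0.0749), and Cd52, at 1.35 (adjusted p = 0.075), were the next members by p. The part of monocytes in the sorted cells was not tested.

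Retnla, Thbs1, Tnip3 and Slpi were also higher in CCR2+ CRMs. Retnla, a secreted protein of the resistin family made by alternatively activated macrophages, was 2165, 828 and 5545 CPM in control, 2149, 796 and 900.4 CPM in high-fat diet and 922, 1031 and 1089.8 CPM in aged CCR2+ libraries. CCR2- libraries held 779, 480.4 and 477 CPM in control, 259, 162 and 220.2 CPM in high-fat diet and 220.5, 23.6 and 66.2 CPM in aged hearts. No CCR2- library reached the lowest CCR2+ library, and the log2 fold change was 2.72 ± 0.41 (adjusted p = 0.00512, and 0.0443 without the 2 libraries). Retnla was on the resident list as well, where it was the 1 member that passed in the higher direction. Thbs1, a matrix glycoprotein, was 81.3, 157 and 779 CPM against 5.92, 31.1 and 65.7 CPM without overlap, at 2.91 ± 0.56 (adjusted p = 0.0283). Tnip3, an inhibitor of NF-kB signalling, was 249, 452 and 1419 CPM against 10.6, 91.8 and 153 CPM without overlap, at 2.57 ± 0.49 (adjusted p = 0.0283). Slpi, a secreted protease inhibitor, was 113, 326 and 776 CPM against 48.6, 78.1 and 213 CPM, at 2.17 ± 0.41 (adjusted p = 0.0283). Without the 2 libraries the adjusted p of Thbs1, Tnip3 and Slpi was 0.142 each.

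Wnt11, a secreted Wnt ligand named after its values were seen, passed with 3.87 ± 0.81 (adjusted p = 0.0451, and 0.142 without the 2 libraries) although its level depended on condition. Control CCR2+ libraries held 0.541, 0.867 and 1.03 CPM, high-fat diet CCR2+ libraries 78.8, 120.0 and 75.4 CPM and aged CCR2+ libraries 47.5, 11.2 and 106 CPM, whereas no CCR2- library exceeded 5.59 CPM. The calcium-activated potassium channel Kcnn4 did not overlap between subsets at 63.5, 184 and 377 CPM against 6.91, 35.4 and 54.3 CPM, yet did not pass (2.85 ± 0.64, adjusted p = 0.0697). Its difference was 5.28 in control, 2.70 in high-fat diet and 0.70 in aged hearts.

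**Figure D3:**
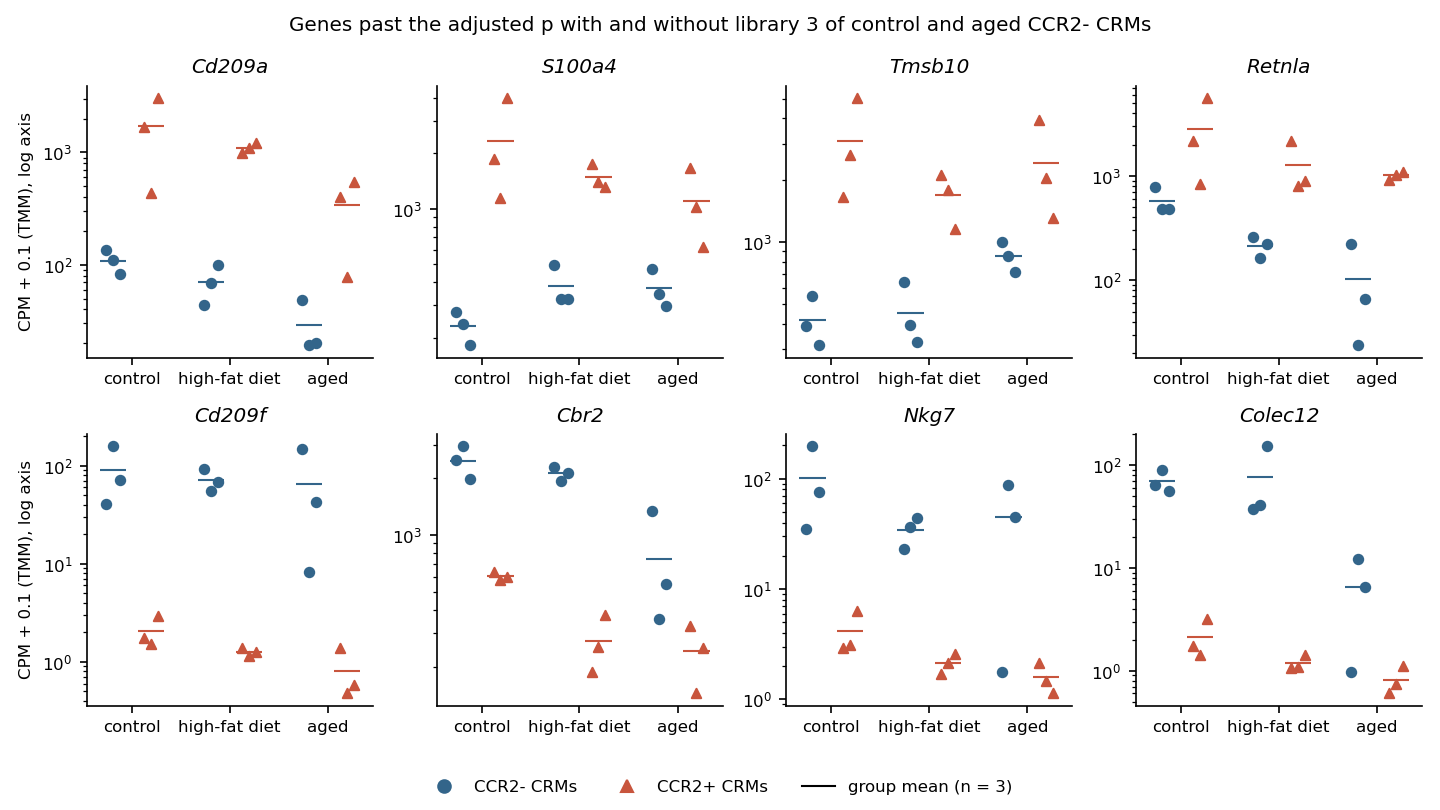
Levels of the 8 genes past an adjusted p of 0.05 both with and without library 3 of control and aged CCR2- CRMs. The vertical axis is CPM + 0.1 on a log axis, each point is 1 library coloured by subset and grouped by condition, and short lines are group means of 3 libraries; on average Cd209a, S100a4, Tmsb10 and Retnla lie higher and Cd209f, Cbr2, Nkg7 and Colec12 lower in CCR2+ CRMs in all 3 conditions.

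On the CCR2- side, Cd209f (chr8:4102787-4105835), another C-type lectin of the DC-SIGN family, gave the smallest p. CCR2- libraries held 40.5, 156 and 70.7 CPM in control, 91.5, 54.3 and 67.8 CPM in high-fat diet and 146, 8.21 and 41.9 CPM in aged hearts. CCR2+ libraries held 1.65, 1.44 and 2.82 CPM in control, 1.28, 1.05 and 1.17 CPM in high-fat diet and 1.30, 0.378 and 0.476 CPM in aged hearts. No library of one subset reached the range of the other, and the log2 fold change was -5.98 ± 0.68 (adjusted p = 0.000248, and 0.00169 without the 2 libraries), with -5.50, -5.93 and -6.51 in the 3 conditions. Cd209a and Cd209f thus went in opposite directions in control, high-fat diet and aged hearts. Other members of the family on the resident list did not pass, with -4.62 for Cd209g (adjusted p = 0.245) and 1.39 for Cd209d (adjusted p = 0.803), and reads shared within the family could be split between its genes.

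Colec12, Vsig4, Gas6 and Fcna, which take up or tag particles, were lower in CCR2+ CRMs. Colec12, a scavenger receptor with a collagen-like stalk, was 0.501, 1.01 and 3.08 CPM in CCR2+ and 0.879, 41.0 and 152 CPM in CCR2- libraries, at -4.84 ± 0.75 (adjusted p = 0.00562, and 0.0347 without the 2 libraries). Aged CCR2- library 1 was as low as the CCR2+ libraries. Vsig4, the complement receptor of the immunoglobulin family on resident macrophages, was 2.99, 5.67 and 66.2 CPM against 48.8, 179 and 623 CPM, at -4.51 ± 0.84 (adjusted p = 0.0283, and 0.0717 without the 2 libraries). Its highest CCR2+ value came from aged library 3, without which the log2 fold change was -5.28. Gas6, which bridges phosphatidylserine to TAM receptors, was 5.21, 7.52 and 90.0 CPM against 55.4, 251 and 642 CPM, at -3.67 ± 0.66 (adjusted p = 0.0226, and 0.0776 without the 2 libraries). Fcna, a ficolin that recognises microbial glycans, was 1.56, 4.19 and 27.1 CPM against 13.5, 131 and 387 CPM, at -3.92 ± 0.75 (adjusted p = 0.0283, and 0.0983 without the 2 libraries), and at -4.53 without aged CCR2+ library 1. Of 29 tested genes on the list of uptake receptors and bridging ligands, Cd209f, Colec12, Gas6 and Vsig4 passed as lower and 0 as higher. As higher, 1 had an unadjusted p under 0.05 and 0 passed by DESeq2 and limma-voom. The list had 13 log2 fold changes above 0, 16 below and a median of -0.19, and Cd209f, Gas6 and Vsig4 are also on the resident list.

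Enzymes of the CCR2- side were led by Cbr2, a carbonyl reductase that is abundant in resident macrophages. Its CCR2- levels were 2499, 2943 and 1971 CPM in control, 2300.3, 1919 and 2132 CPM in high-fat diet and 1331, 357 and 549 CPM in aged hearts. CCR2+ libraries held 638, 574 and 597 CPM in control, 186, 254 and 376 CPM in high-fat diet and 329, 144 and 252 CPM in aged hearts. The subsets separated within every condition, but aged CCR2- libraries 2 and 3 were below the control CCR2+ libraries. The log2 fold change was -2.20 ± 0.28 (4.61-fold lower, adjusted p = 0.00114, and 0.00169 without the 2 libraries). Blvrb, which reduces biliverdin in heme breakdown, was 22.1, 73.7 and 139 CPM against 152, 327 and 566 CPM without overlap, at -1.84 ± 0.37 (adjusted p = 0.0378, and 0.142 without the 2 libraries), and was the 1 of 16 iron and heme genes that passed (list median -0.59). Hpgd, which inactivates prostaglandins, was named after its values were seen and had -3.64 ± 0.75 (adjusted p = 0.0415, and 0.142 without the 2 libraries).

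Of the 26 resident genes, 6 passed as lower (Cd209f, Cbr2, Gas6, Fcna, Vsig4 and Hpgd) and 20 were lower in all 3 conditions, against 9.94% of all tested genes. The list was assembled around TLF macrophages of the heart and other tissues, and its median log2 fold change was -2.16, with -1.93 in control, -2.55 in high-fat diet and -0.81 in aged hearts. The hemoglobin scavenger receptor Cd163 (-3.54, adjusted p = 0.0697), the selenium carrier Selenop (-1.03, adjusted p = 0.0883), the chemokine Pf4 (-1.02, adjusted p = 0.11) and the growth factor Igf1 (-0.84, adjusted p = 0.604) did not pass. The mannose receptor Mrc1 had -0.47 (adjusted p = 0.836) and its direction differed between conditions.

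Nkg7, a granule protein of cytotoxic lymphocytes, and Gzma, a granzyme, were also lower in CCR2+ CRMs. Nkg7 was 1.03, 2.06 and 6.26 CPM in CCR2+ and 1.66, 44.3 and 195 CPM in CCR2- libraries, at -4.54 ± 0.69 (adjusted p = 0.00561, and 0.0396 without the 2 libraries). Gzma was 0.310, 3.67 and 19.1 CPM against 3.34, 38.0 and 109.9 CPM, at -3.79 ± 0.80 (adjusted p = 0.0486, and 0.142 without the 2 libraries). Both are on a list of T and NK cell markers, 13 of 14 tested, of which these 2 passed and whose median log2 fold change was 0.02. Of the 13, 7 had a log2 fold change above 0 and 6 below. Cd3d, Cd3e, Cd3g, Trac and Trbc2 were higher in CCR2+ CRMs in all 3 conditions, without passing. Summed, 6 cytotoxic genes of that list (Nkg7, Gzma, Gzmb, Prf1, Ncr1 and Klrb1c) were 2.42, 6.72 and 26.7 CPM in CCR2+ and 63.0, 149 and 350 CPM in CCR2- libraries without overlap at the pooled level. These 6 were picked from the list and include the 2 that passed, and no sum without those 2 was made. The log2 fold changes of the others were -5.46 for Klrb1c, -2.80 for Gzmb, -0.37 for Ncr1 and 0.50 for Prf1, and none passed by edgeR. The CD3 chains Cd3d, Cd3e and Cd3g summed to 15.1, 26.9 and 49.7 CPM against 12.8, 20.3 and 34.7 CPM, Cd3e was at most 1.46 CPM in any library, and Cd8a was 0 in all CCR2- libraries. The part of NK cells in the Nkg7 and Gzma differences was not tested.

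Many of the lower genes were at low levels in CCR2+ CRMs. Every CCR2+ library was under 5 CPM in 14 of the 25 lower genes, whereas 0 of the 21 higher genes had every CCR2- library under 5 CPM. Pot1a, which protects telomeres, was 0.677, 1.34 and 2.72 CPM in CCR2+ libraries, and its CCR2- libraries ran from 0.474 to 133 CPM, with control CCR2- library 1 as low as the CCR2+ libraries (-4.90 ± 0.88, adjusted p = 0.0226, and 0.085 without the 2 libraries). Apold1 (-5.35 ± 1.0, adjusted p = 0.0283, and 0.0983 without the 2 libraries) spanned 0.269 to 94.2 CPM and Fam213a (-4.94 ± 0.94, adjusted p = 0.0283, and 0.108 without the 2 libraries) spanned 1.31 to 133 CPM among CCR2- libraries. Tcim, a regulator of Wnt signalling, was in contrast 10.7, 28.3 and 80.1 CPM in CCR2- and at most 9.42 CPM in CCR2+ libraries (-4.30 ± 0.87, adjusted p = 0.0378, and 0.142 without the 2 libraries). A single gene of the 46 had at most 3 counts in every CCR2+ library, and its fold change is no bound. Counting floors cover counting error only.

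Direction over conditions was assessed from the fold change within each condition. By the quasi-likelihood test within single conditions, 51 higher and 57 lower of the 15456 tested genes passed in control hearts. In high-fat diet hearts 1 and 1 passed, and in aged hearts 0 and 0. Among tested genes, 2502 (16.2%) were higher and 1537 (9.94%) were lower in CCR2+ CRMs in all 3 conditions, and 11417 were not of one direction. All 46 genes past the adjusted p kept their direction in the 3 conditions, although these conditions supplied the pooled estimate. With a log2 fold change beyond 1 asked of each condition, 420 genes remained higher and 395 lower. The counts of one direction also depended on scaling, with 3412 higher and 1002 lower under RLE factors and 1718 higher and 2192 lower with library size alone. Within-condition differences were smaller in aged than in high-fat diet hearts for each of the 7 class II genes and for S100a4, S100a6 and Tmsb10, whereas Cd209f (-6.51) and Retnla (3.29) had their largest difference in aged hearts; none of these 12 genes passed the interaction test.

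**Figure D4:**
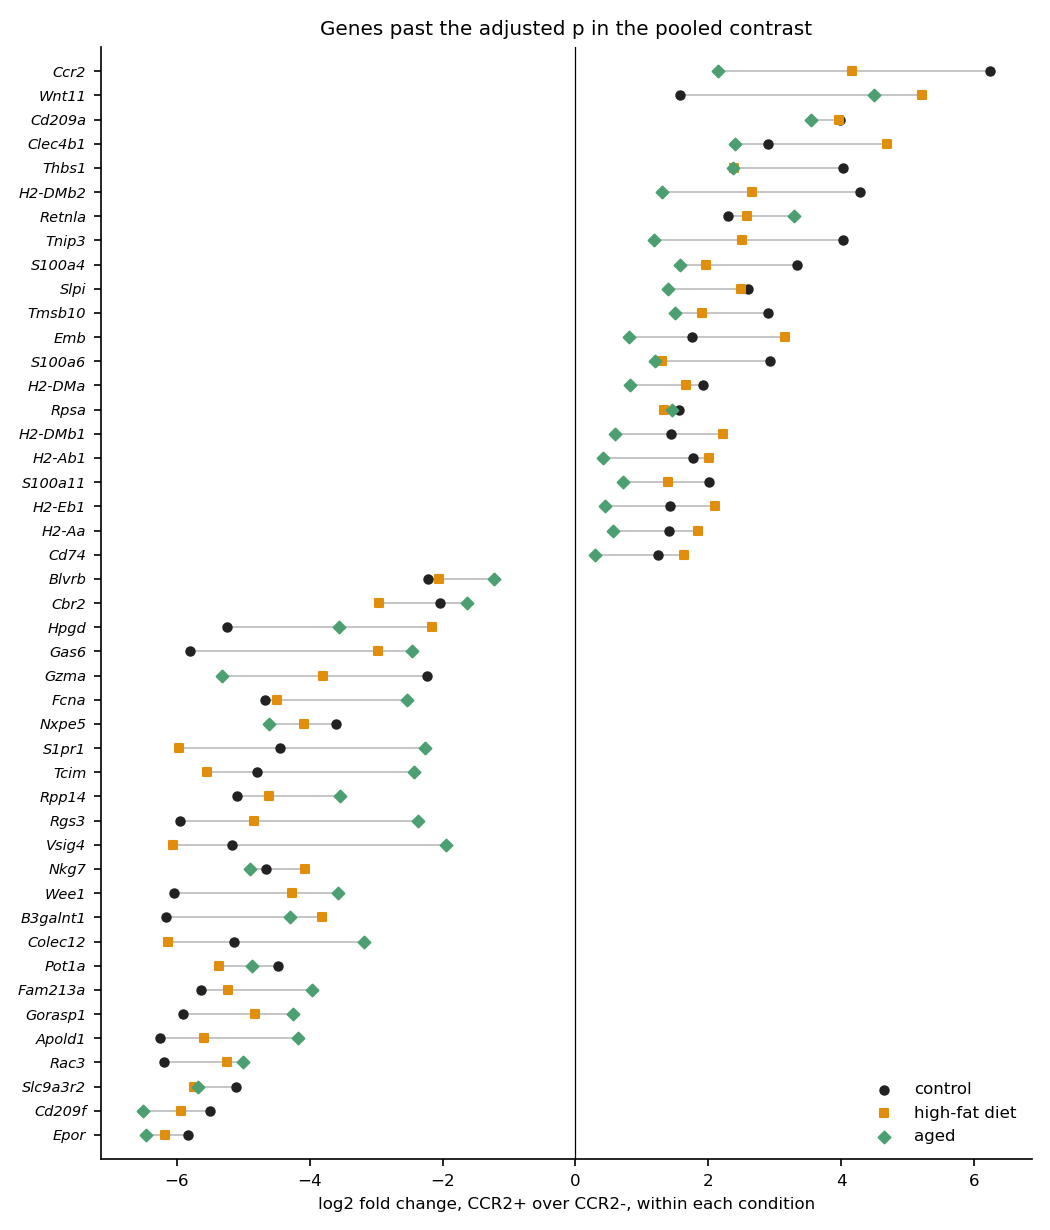
Log2 fold change of CCR2+ over CCR2- CRMs within control, high-fat diet and aged hearts, for 45 of the 46 genes past the pooled adjusted p. The gene with at most 3 counts in every CCR2+ library is left out; each row is a gene and each symbol a condition, and all symbols of a row lie on the same side of 0.

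Without any model, 11 genes (0.0712%) had all 9 CCR2+ libraries above all 9 CCR2- libraries and 4 genes (0.0259%) had all below. Of these, 7 and 3 passed the adjusted p. S100a4, Tmsb10, Retnla, S100a6, Tnip3, Thbs1, Clec4b1 and Kcnn4 were among the 11, next to 3 predicted genes, and Tcim, Cd209f, Blvrb and Smagp were the 4. Smagp, a small membrane glycoprotein, was 2.02 to 54.1 CPM in CCR2+ and 60.4 to 218 CPM in CCR2- libraries and did not pass (-2.84 ± 0.73, adjusted p = 0.11). When libraries were compared only within their own condition, 48 genes (0.311%) were fully higher in each of the 3 conditions and 14 (0.0906%) fully lower, of which 13 and 7 passed.

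Each condition was also left out in turn and used to check direction. Genes past the adjusted p in high-fat diet and aged hearts, 2 higher and 1 lower, all had the same direction in control hearts. Genes past it in control and high-fat diet hearts included 18 higher ones, all 18 of which were higher in aged hearts, and 20 lower ones, of which 11 (55%) were lower in aged hearts. Over all tested genes, 61.1% of those higher and 44.4% of those lower in the other 2 conditions kept their direction in aged hearts. The same shares over all tested genes were 51.5% and 52.5% in control and 55.2% and 51.6% in high-fat diet hearts. No gene passed in control and aged hearts together by edgeR's quasi-likelihood test, where 763 higher and 825 lower genes had an unadjusted p under 0.05 and DESeq2 passed 569 and 408. Among the 100 genes of smallest p in the other 2 conditions, a choice added after the data were seen, 67.7% kept their direction in control, 58.2% in high-fat diet and 63.2% in aged hearts. By direction these were 82.1% of the higher and 61.8% of the lower genes in control, 63.6% and 56.5% in high-fat diet, and 90.6% and 49.2% in aged hearts.

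A subset difference that depended on condition passed for 5 genes (0.0323%), each with an adjusted p of 0.0395, and 3609 genes had an unadjusted p under 0.05. Traf1, Cyp4f18, Batf and Rab4b had their largest subset difference in control hearts, and in the first 3 of them the sign in aged hearts was the opposite. Traf1, an adaptor of TNF receptor signalling, was 255, 221 and 694 CPM in control CCR2+ and 5.17, 7.25 and 2.73 CPM in control CCR2- libraries, and its log2 fold change was 6.27 in control, 2.04 in high-fat diet and -0.76 in aged hearts. Cyp4f18, which oxidises leukotriene B4, was 1096, 393 and 1940.0 CPM against 75.3, 15.0 and 32.0 CPM in control hearts, with log2 fold changes of 4.81, 1.13 and -1.16. Batf, a transcription factor of the AP-1 family, was 4.69, 4.87 and 7.55 CPM in control CCR2+ libraries and 201, 197 and 142 CPM in control CCR2- libraries, whereas its log2 fold change was 0.37 in high-fat diet and 0.67 in aged hearts after -4.98 in control. The small GTPase Rab4b, named after its values were seen, had -5.30 in control, 1.28 in high-fat diet and -0.22 in aged hearts. Without the 2 libraries that stood apart none of the genes passed this test, with 2322 genes at an unadjusted p under 0.05, while DESeq2 passed 1879 and limma-voom 97 with all 18 libraries.

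Other gene groups moved less. Of 22 inflammatory cytokine genes 1 passed (Tnip3, higher; list median 0.22, 8 genes below 0), and of 31 growth factor and matrix genes 2 passed (Thbs1 and Retnla, higher; median 0.14, 14 genes below 0). DESeq2 passed 3 higher and 0 lower cytokine genes and 7 higher and 1 lower growth factor and matrix genes, and limma-voom 1 and 0 and 2 and 1. By edgeR no gene passed among 22 chemokines (median -0.25, with 2 higher and 3 lower at an unadjusted p under 0.05), 20 chemotactic receptors (-0.21, 1 and 0), 29 interferon-stimulated genes (0.27, 0 and 0), 28 macrophage transcription factors (-0.25, 2 and 5) and 30 lysosomal genes (-0.31, 1 and 5). The same held for 28 cell cycle genes (0.17, 2 and 0), 17 glycolytic genes (0.49, 4 and 1), 30 oxidative phosphorylation genes (0.54, 6 and 0) and 19 immediate early and heat shock genes (-0.40, 0 and 4). In these 9 lists DESeq2 passed at most 2 genes in a direction, and limma-voom passed 2 chemokines and 1 lysosomal gene. The medians are to be set against 0.15 for all tested genes, of which 0.298% passed.

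Markers of further cell types were present at low or variable levels. None of 12 neutrophil (median log2 fold change -0.54), 7 B cell (1.33), 10 endothelial (-0.76), 12 fibroblast (-0.54), 11 cardiomyocyte (-0.17), 8 mural (-0.77), 4 erythroid (2.72) and 3 mast cell genes (0.34) passed by edgeR. At an unadjusted p under 0.05 all 4 hemoglobin genes were higher, DESeq2 also passed all 4 of them, and in each of the other 7 lists 0 markers were higher and 1 to 3 were lower, by that p and by DESeq2. Hemoglobin genes summed to 52.3, 758 and 4104 CPM in CCR2+ and 40.9, 168 and 299 CPM in CCR2- libraries. Fibroblast markers summed to 147, 346 and 3121 CPM against 217, 484 and 1375 CPM, and mural markers to 1.95, 14.2 and 27.7 CPM against 0.659, 25.4 and 1092 CPM. The part of these cells in the subset differences was not tested.

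**Figure D5:**
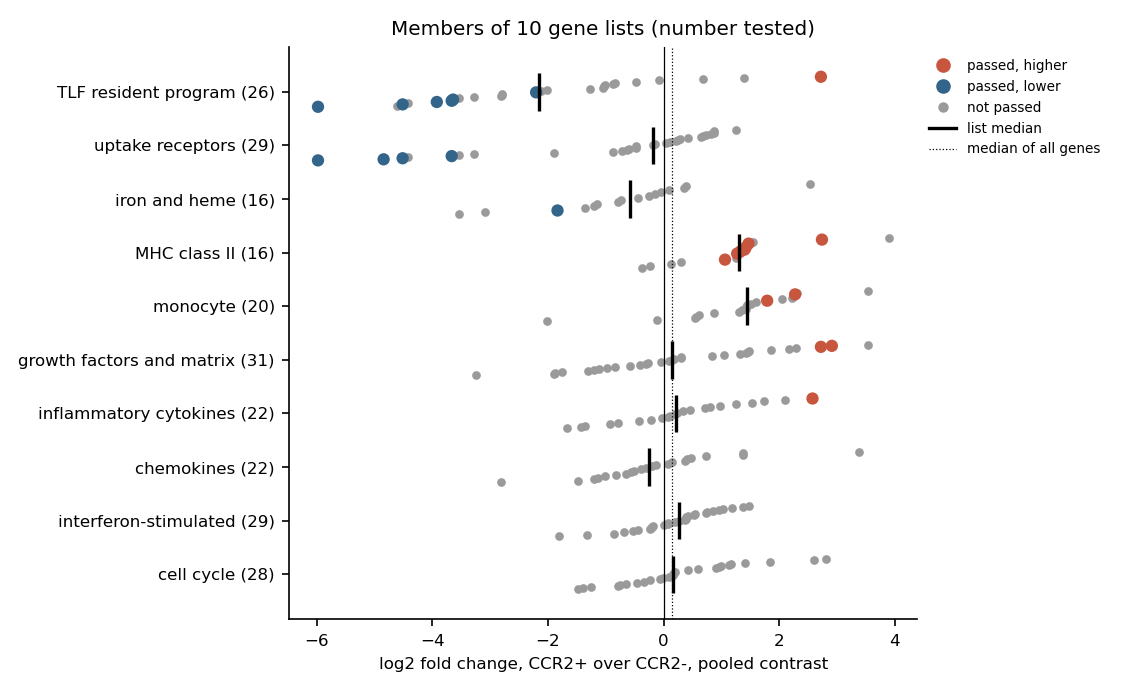
Log2 fold change of CCR2+ over CCR2- CRMs for the genes of 10 lists. Each point is a gene, coloured where it passed an adjusted p of 0.05, and the bar marks the list median; the resident list lies mostly below 0 and the class II and monocyte lists mostly above, against a median of 0.15 for all tested genes.

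Libraries were then left out one at a time. In all 18 such fits 11 of the 46 genes passed, namely Cd209a, Cd209f, Cbr2, S100a4, Tmsb10, Retnla, Nkg7, Colec12, Ccr2, H2-Aa and S100a6. Of these, Ccr2, H2-Aa and S100a6 did not pass when library 3 of control and of aged CCR2- CRMs were left out together. All 46 kept their direction in every setting in which they were fitted. The number of genes that passed was lowest without control CCR2- library 3, at 7 higher and 6 lower.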

How the data were processed

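RNA-seq of 18 libraries was used. Per the labels and the study's methods, the authors checked reads with FastQC, trimmed them with Cutadapt, aligned the trimmed reads using HISAT2 and ran StringTie, against a mouse reference named only as version 101; tool versions, the assembly's name, strand setting and treatment of multi-mapping reads were not given in the sources used here. The values analysed are the deposited raw counts per Ensembl gene, 55401 rows, of which 27008 had a count in any library and 55141 a symbol by the GENCODE annotation of GRCm38. Library totals were between 39753911 and 56541280, so that 3 counts correspond to 0.0531 to 0.0755 CPM before TMM scaling, and such floors cover counting error only.

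Counts were filtered with filterByExpr over the 6 groups (15456 genes, at least 99.7882% of counts in every library) and scaled by TMM to CPM. The subset difference was fitted with condition as a term by the quasi-likelihood test of edgeR 4.0.16 in R 4.3.3, with Benjamini-Hochberg adjustment over all tested genes. The common dispersion was 1.84. Standard errors are the log2 fold change divided by the square root of the F statistic. An interaction of subset and condition and the contrast within each condition were fitted on the same counts, and single markers were compared by exact permutation within conditions. Alternatives were DESeq2 1.42.0, limma 3.58.1 with voom quality weights, other scalings, filters and thresholds, a replicate block, and leaving out libraries or conditions. The model script was tested on simulated data. Set changes were recovered at a low dispersion but not at the common dispersion of these data, which the simulation gave to every gene alike. A gene that did not pass is not shown to be equal between the subsets.

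Genes were named if they were markers, the 10 called genes of smallest p in each direction, the 5 with the widest gap among libraries that do not overlap, the 3 of smallest interaction p, or the 4 of smallest p in a list; predicted genes were counted only. Values of 1 gene that passed the interaction test are left out here. Further genes were named for their role after their values were seen. The members, the 27 gene lists and the tests were chosen with earlier results of these data known. Promoters were taken from RefSeq (GRCm38.p6), at the first start listed for each gene.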

Additional observations from a re-analysis of the deposited data

Results flagged for a closer look

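Among 62 groups of 9 libraries, 3 held a library far from the rest by Dixon's ratio of gap to range, and chance alone flags about 5% of groups. Timd4 in CCR2+ CRMs gave 0.51, from high-fat diet library 2 at 20.8 CPM with the next library at 4.26 CPM. The summed interferon-stimulated list in CCR2- CRMs gave 0.512, from aged library 1 at 26887 CPM with the next at 10761 CPM. The summed oxidative phosphorylation list in CCR2+ CRMs gave 0.553, from control library 3 at 19122 CPM with the next at 9231 CPM, and this library also had the lowest TMM factor (0.427).

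The subset difference of Traf1, Cyp4f18, Batf and Rab4b differed between conditions, each at an adjusted p of 0.0395 by edgeR's quasi-likelihood test of the interaction. Control CCR2- and CCR2+ libraries were apart in all 4 genes, higher in CCR2+ for Traf1 and Cyp4f18 and lower for Batf and Rab4b. None of the 4 was past the adjusted p when library 3 of control and aged CCR2- CRMs was left out.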

How the results depend on the processing

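Counts of genes past the adjusted p depended on the tool and the libraries, while all 46 genes kept their direction in every setting in which they were fitted (32 settings, and 29 to 31 for 5 genes that a filter removed from the others). Higher and lower genes past the adjusted p were 813 and 568 by DESeq2 (3527 genes had no adjusted p and were not counted), 64 and 55 by limma-voom, 24 and 10 under RLE scaling, 19 and 47 under library size alone, 53 and 54 with at least 10 counts in every library, 72 and 105 as the mean of the 3 within-condition contrasts, and 50 and 73 at an adjusted p of 0.1. They were 2 and 1 without the control, 0 and 0 without the high-fat diet and 18 and 20 without the aged libraries, 4 and 4 without the 2 CCR2- libraries that stood apart, and 3 and 3 when control CCR2+ library 3 was left out as well, a choice made after seeing the data. Leaving out 1 library gave 7 to 25 higher and 6 to 24 lower genes.

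With the fold limit, the counts were 550 and 538 by DESeq2, 48 lower by limma-voom, 9 lower with RLE factors, 20 and 45 with at least 10 counts, 39 and 98 as the mean contrast, 21 higher with no fold limit or one of 1, and 22 and 69 at an adjusted p of 0.1. They were 1 and 1 without control, 0 and 0 without high-fat diet, 3 and 4 without the 2 libraries and 1 and 2 without 3, and 4 to 14 higher and 6 to 22 lower without 1 library. Interaction counts were 1879 by DESeq2, 97 by limma-voom, 0 with RLE factors (3704 at an unadjusted p under 0.05), 38 with library size alone, 629 without a filter, 48 with at least 10 counts, 0 without the 2 libraries and 0 to 15 without 1. Genes of one direction numbered 1467 and 859 with at least 10 counts, where fewer genes were tested, and 1002 lower with RLE factors, and 2048 to 2851 higher and 1427 to 1935 lower without 1 library. Genes not overlapping were 2 lower under RLE and 7 lower under library size alone, and 11 to 18 higher and 4 to 9 lower without 1 library.

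The replicate block, which pairs libraries of one number within a condition, gave 6 higher and 5 lower genes with or without the fold limit and 0 interactions (1173 at an unadjusted p under 0.05). Between the deviations of same-numbered libraries from their group means, 0 of 9 pairs had r over 0.1 (from -0.0365 to 0.0920). With 3 libraries per group these values cannot decide whether same-numbered libraries came from the same mouse, and the labels do not say.

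Folr2 passed at -1.63 by DESeq2, -2.60 by limma-voom, -2.28 with library size alone, -2.0 without a filter, -2.05 with at least 10 counts and -2.02 as the mean contrast. Timd4 passed at -4.08, -4.47 and -4.38 by DESeq2, at least 10 counts and the mean contrast, and Lyve1 at -2.43 by limma-voom and -2.42 with library size alone. Ccr2 no longer passed at 3.10 without control, 4.07 without high-fat diet, 3.98 without the 2 libraries and 4.01 without 3. Without 1 library the log2 fold changes were 3.90 to 4.56 for Ccr2, -2.38 to -1.81 for Folr2, -5.17 to -3.83 for Timd4 and -2.61 to -1.75 for Lyve1, and the list medians -2.50 to -1.92 for resident and 1.18 to 1.46 for class II genes. The class II median was 0.77 without high-fat diet, and 72.0% of the 100 genes kept their direction in the high-fat diet libraries with library size alone. The cause of these shifts was not tested. Counting error is largest for the 14 lower genes that were under 5 CPM in every CCR2+ library.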
